A study of Rattus norvegicus with 2 samples.

Results

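The genes described here are interferon receptors and ligands, the IRF and STAT transcription factors and the genes that interferons induce. They were chosen by name from the kidney gene table, through the symbol prefixes Ifi, Ifn, Irf, Gbp, Oas, Isg and Stat, the genes Mx1 and Mx2, and the single names Rsad2, Usp18, Bst2 and Dhx58. The rule gave 64 of the 29516 rows, 46 of which averaged 1 FPKM or more across the diets. FPKM is a fragment count scaled to transcript length and to library size, so levels can be compared between genes. The deposited value columns do not name their unit, and FPKM was taken from the layout and the processing tools (Cufflinks reports FPKM). No row carried the name Bst2 or Ifnar2, and these genes are not analysed here.

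The groups were the kidney of rats fed a diet with 14% soy and the kidney of rats fed a casein control diet, with 1 library each. Both groups were F344 rats, an inbred laboratory strain prone to kidney disease in old age. All came from the NIA colony at 16 months of age, ate their diet for 4 months and were 20 months old at sampling. The sources used here do not give the number or sex of the rats behind each library. No difference reported here therefore has a replicate check, and no test was run. A gene is called lower or higher when it differed by at least 1.5-fold on the scale log2((soy FPKM + 0.1)/(casein FPKM + 0.1)). Fold values printed for single genes are plain ratios of the FPKM values, without the added 0.1, so they can exceed the fold on that scale.

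Interferons are secreted proteins that warn tissue of viruses and other danger. They bind paired receptors whose JAK kinases phosphorylate STAT proteins. Type I interferon leads to a complex with STAT2 and IRF9 that binds the interferon-stimulated response element (ISRE), while interferon gamma leads to STAT dimers that bind the gamma-activated site (GAS). The induced genes block viral entry, degrade RNA, raise antigen presentation or restrain the pathway, and many are also expressed at a resting level in leukocytes and epithelium.

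Of the 46 members at or above the limit, 17 (37.0%) were at least 1.5-fold lower in the soy kidney, against 8.08% of all 14077 genes at that limit. None of the 46 was at least 1.5-fold higher, against 3.43% of all genes, and 29 lay within 1.5-fold. These shares of all genes are also the background for the counts by role given below. The log2 value was below 0 in 42 of the 46 members (91.3%), against 47.2% of all genes. The median log2 over these members was -0.50, and that of all genes was 0.01. The middle 50% of members lay between -0.67 and -0.21, and the middle 50% of all genes between -0.14 and 0.14. The differences were therefore broad and small, and the 3 members more than 2-fold apart on this scale were Ifi203, Irf8 and Ifi204.

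The share of lower members was above that of all genes at every expression level. At a mean of 1 to 5 FPKM, 9 of 19 members were lower, against 17.7% of all genes in that range. Between 5 and 20 FPKM, 4 of 16 members were lower, against 5.89% of all genes. At 20 FPKM or more, 4 of 11 members were lower, against 3.0% of all genes.

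In the authors' deposited table, none of the 64 members was marked as significant, while 0.848% of the 17450 genes with test status OK were. The smallest q of a member in the authors' deposited table was 0.0539, for Irf8, followed by 0.0919 for Ifi27. Of the 52 members with status OK, 13 (25%) had an unadjusted p under 0.05 and a lower value with soy in the authors' deposited table, against 5.23% of all genes with that status. No member had an unadjusted p under 0.05 and a higher value with soy. A further deposited table lists 145 transcripts marked as significant, and 0 of them belong to a member. Because members are only 64 of the 29516 genes, this 0 says little about them. The series holds 1 library per diet, so these p-values cannot measure the spread between rats.

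**Figure D1:**
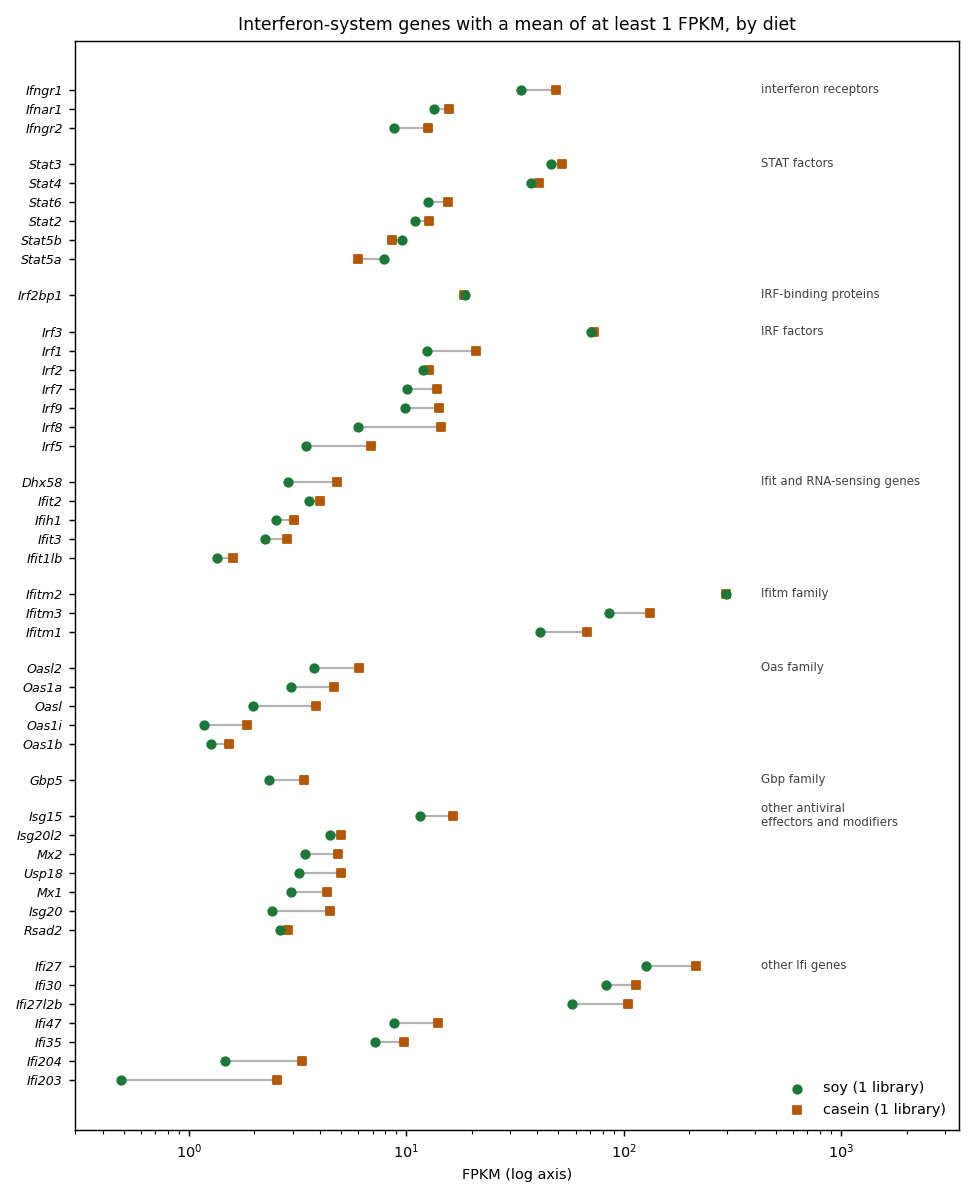
FPKM on a log axis of 45 of the 46 members with a mean of at least 1 FPKM, grouped by role and ordered by mean, with circles for the soy library and squares for the casein library (1 library each, so no error bars). The soy value lies left of the casein value for 41 genes, and the 4 exceptions are Stat5a, Stat5b, Irf2bp1 and Ifitm2.

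The interferon genes themselves were near or at 0. All 6 ligand rows were below the limit of 1 FPKM. Interferon beta (Ifnb1) and the interferon alpha gene Ifna2 were listed at 0 under both diets. Ifna1 and Ifna11 had 0.0197 and 0.0195 FPKM with soy and were listed at 0 with casein. Ifng, the interferon of T cells and natural killer cells, had 0.175 FPKM with soy and 0.0403 FPKM with casein, both too low for a call. Ifnk, an interferon of keratinocytes, listed at 0.0732 FPKM with soy and at 0 with casein, shares its deposited locus with the row Mobkl2b.

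The receptor chains were within 1.5-fold. Ifngr1, the chain that binds interferon gamma, had 33.6 FPKM with soy and 48.7 FPKM with casein, and its signalling partner Ifngr2 had 8.76 FPKM with soy and 12.6 FPKM with casein. These are 1.45-fold and 1.44-fold lower, just inside the limit. Ifnar1, a chain of the type I receptor, differed less, with 13.5 FPKM with soy and 15.8 FPKM with casein. Ifnar1 and Ifngr2 lie beside each other on chromosome 11, between 31454788 and 31526993 in the deposited coordinates. The sources used here name no genome build.

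None of the 6 STAT rows differed by 1.5-fold, and their median log2 was -0.15. Stat2, the STAT of the type I complex, had 11 FPKM with soy and 12.8 FPKM with casein. Stat3, which carries interleukin-6 type signals, had 46.4 FPKM with soy and 52.2 FPKM with casein, and Stat6, the factor of interleukin-4 signals, had 12.5 FPKM with soy and 15.5 FPKM with casein. Both Stat5 genes, which transmit growth hormone and prolactin signals, pointed the other way. Stat5a had 7.85 FPKM with soy and 6.0 FPKM with casein, 1.31-fold higher, and Stat5b had 9.53 FPKM with soy and 8.55 FPKM with casein.

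The value listed as Stat4 needs care. Stat4, a factor of lymphocyte signalling, was listed at 37.4 FPKM with soy and 40.8 FPKM with casein, above each of the 10 T cell markers found. The row shares its deposited locus with 4 other rows. Fragments in this interval may have been shared among its genes, which was not tested, so the Stat4 value cannot be taken as the level of that gene alone.

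All 8 IRF factors at or above the limit had lower values in the soy kidney, and 3 passed 1.5-fold. Their median log2 was -0.48 and their range -1.25 to -0.06. Irf8, which directs the formation of monocytes and dendritic cells, had 6.01 FPKM with soy and 14.4 FPKM with casein, 2.40-fold lower (log2 -1.25), and only 2.28% of all genes at the limit had a lower value. Irf5, which acts below Toll-like receptors in macrophages, had 3.44 FPKM with soy and 6.89 FPKM with casein, 2.0-fold lower. Irf1, an early target of interferon gamma, had 12.4 FPKM with soy and 21.0 FPKM with casein, 1.69-fold lower. Irf4, a factor of lymphocytes, was below the limit, at 0.473 FPKM with soy and 1.04 FPKM with casein.

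Irf9, the DNA-binding partner of the type I complex, and Irf7, which amplifies type I interferon production, were both lower but within 1.5-fold. Irf9 had 9.82 FPKM with soy and 14.1 FPKM with casein, and Irf7 had 10.1 FPKM with soy and 13.9 FPKM with casein. Irf3 and Irf2 differed least. Irf3, which starts interferon production after nucleic acid sensing, had 70.3 FPKM with soy and 73.1 FPKM with casein, in a row that shares its deposited locus with 1 other row, so this level may not be that of Irf3 alone. Irf2, an antagonist of Irf1, had 11.9 FPKM with soy and 12.8 FPKM with casein. Irf2bp1, which matches the name rule but encodes a protein that binds IRF2, was at 18.6 FPKM with soy and 18.4 FPKM with casein.

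The upstream sequences of Irf8 and Irf1 are shown because these are the lowest IRF genes with a match to the GAS core TTCNNNGAA, and this pair was picked after its values had been seen. The sequences are from RefSeq, build GRCr8, 5′ to 3′ along the gene, and capitals mark the match. Irf8 holds 2 matches, which begin 180 and 161 bases before the start of the gene, and Irf1 holds 1, which begins 142 bases before it.
Irf8, chr19:65699079-65699156, plus strand: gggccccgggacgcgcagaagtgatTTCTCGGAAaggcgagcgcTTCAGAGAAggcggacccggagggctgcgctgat
Irf1, chr10:38417768-38417826, plus strand: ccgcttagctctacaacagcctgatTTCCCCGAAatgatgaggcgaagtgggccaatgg

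Among 36 members at the limit for which RefSeq gave a promoter, 9 (25%) held the GAS core on either strand within the 250 bases before the start, against 7.67% of all 33469 promoters. Of these 9, 6 were at least 1.5-fold lower with soy, with a median log2 of -0.64. Of the 27 without the match, 6 were lower, with a median of -0.33. A match says only that these letters are present. The 10 members at the limit without a matched promoter are left out. Of these, Ifi203, Ifitm1, Ifi27l2b, Dhx58 and Usp18 were at least 1.5-fold lower and the rest within 1.5-fold. The background of promoters has no limit on FPKM and was not reduced to 1 promoter per gene. Shares of lower genes with and without the GAS core were not computed over all genes. Whether this split is particular to the members was therefore not tested.

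**Figure D2:**
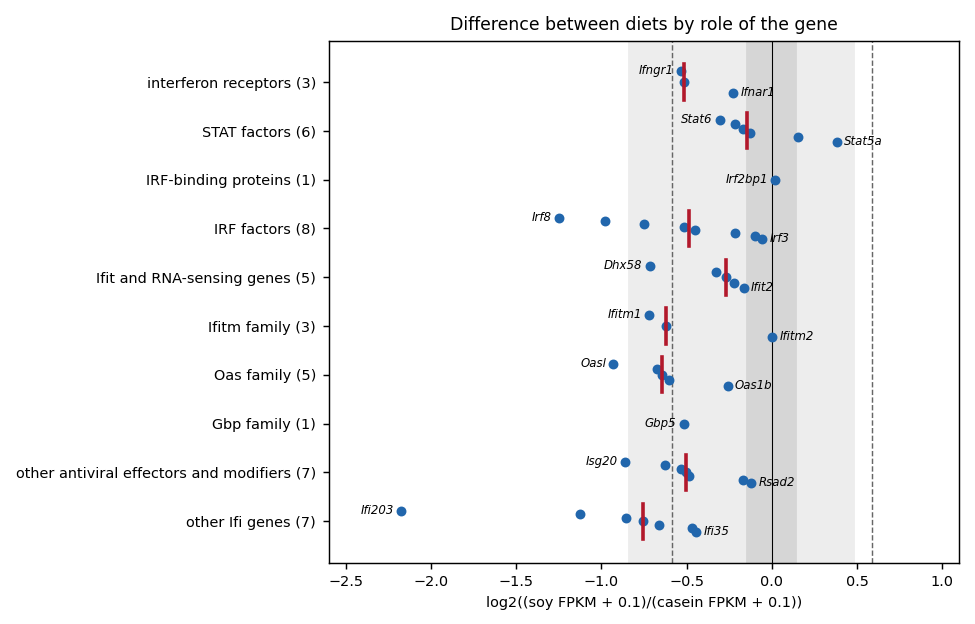
Log2((soy FPKM + 0.1)/(casein FPKM + 0.1)) of the 46 members by role, with 1 point per gene, red bars for medians of roles with at least 3 genes, and dashed lines at 1.5-fold. Shading marks the middle 50% of all 14077 genes (-0.14 to 0.14) and their 5th to 95th percentiles (-0.84 to 0.48), and the Oas family and the other Ifi genes have the lowest medians, -0.64 and -0.75.

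The other Ifi genes, induced proteins of several kinds, had the lowest median of any role class with at least 3 genes, -0.75, and 5 of the 7 were at least 1.5-fold lower. Ifi203 and Ifi204 belong to a family of DNA-binding proteins of the nucleus that is expressed in leukocytes of the mouse. Ifi203 had 0.487 FPKM with soy and 2.55 FPKM with casein, 5.23-fold lower, and it passed the limit of 1 FPKM on the mean through its casein value alone. Its log2 value depended on the pseudocount, at -2.17 with 0.1, -2.36 with 0.01 and -1.25 with 1 FPKM. Ifi204 had 1.46 FPKM with soy and 3.30 FPKM with casein, 2.26-fold lower. Both rows lie within 89724134 to 89768812 on chromosome 13, and related genes of this family can share fragments, so the division between them is uncertain. Ifi47, a GTPase induced by interferon gamma, had 8.74 FPKM with soy and 13.9 FPKM with casein. The authors' deposited table gives that row the status LOWDATA.

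Ifi27, a mitochondrial protein strongly induced by interferon alpha, was the second most abundant member. It had 127 FPKM with soy and 214 FPKM with casein, 1.69-fold lower, and its neighbour Ifi27l2b had 57.7 FPKM with soy and 105 FPKM with casein, 1.81-fold lower. The pair spans 127725193 to 127735028 on chromosome 6. Ifi30, the lysosomal thiol reductase that opens disulphide bonds for antigen presentation, had 82.4 FPKM with soy and 114 FPKM with casein, and Ifi35 had 7.16 FPKM with soy and 9.78 FPKM with casein. These were 1.39-fold and 1.36-fold lower, within the limit.

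The Ifitm family encodes small membrane proteins that hinder viral entry, and its values differed between members. Ifitm2, the most abundant member of all, was level, with 297 FPKM with soy and 296 FPKM with casein (log2 0.0036). Ifitm3 had 85.5 FPKM with soy and 132 FPKM with casein, 1.54-fold lower, and Ifitm1 had 41.0 FPKM with soy and 67.5 FPKM with casein, 1.65-fold lower. The 5 rows Ifitm5, Ifitm2, Ifitm1, Ifitm3 and Ifitm6 lie in this order between 201128658 and 201205954 on chromosome 1. Ifitm5, Ifitm6 and Ifitm7 were below the limit, at up to 0.558 FPKM with soy and 0.581 FPKM with casein. The genes are alike in sequence, so how fragments were divided between them was not tested.

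The upstream sequences of Ifi27, Ifitm3, Irf7 and Ifitm2 are shown because these are the members with a mean of at least 5 FPKM and an ISRE core, GAAANNGAAA on either strand, in that window, of which there were 4. They are ordered by log2 value and end at the base before the start of the gene. Sequences are from RefSeq, build GRCr8, 5′ to 3′ along the gene, and capitals mark the matches. Ifitm3 and Ifitm2 carry the same 10 letters, beginning 44 and 33 bases before the start, while Ifi27 holds 2 matches and the Irf7 match is on the opposite strand.
Ifi27, chr6:128355133-128355311, plus strand: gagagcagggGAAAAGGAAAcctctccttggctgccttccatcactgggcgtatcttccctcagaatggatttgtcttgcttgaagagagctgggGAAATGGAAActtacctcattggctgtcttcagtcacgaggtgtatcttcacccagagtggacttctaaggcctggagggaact
Ifitm3, chr1:205541759-205541878, minus strand: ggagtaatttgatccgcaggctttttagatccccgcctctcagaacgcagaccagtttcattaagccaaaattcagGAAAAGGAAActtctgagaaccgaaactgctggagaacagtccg
Irf7, chr1:205800024-205800143, minus strand: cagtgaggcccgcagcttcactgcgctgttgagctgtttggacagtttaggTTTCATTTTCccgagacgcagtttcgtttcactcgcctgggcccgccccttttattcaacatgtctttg
Ifitm2, chr1:205482349-205482468, minus strand: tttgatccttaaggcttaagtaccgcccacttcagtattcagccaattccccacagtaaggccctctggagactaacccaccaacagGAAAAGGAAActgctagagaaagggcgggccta

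Of the 36 members with a promoter, 13 (36.1%) held the ISRE core, against 3.41% of all 33469 promoters. As for the GAS core, that background has no limit on FPKM and was not reduced to 1 promoter per gene. The 13 ranged in log2 from -0.86 for Isg20 to 0.0036 for Ifitm2, with a median of -0.52, and 6 of them were at least 1.5-fold lower. The 23 without it had a median of -0.44, and 6 were lower, among them Irf8 and Irf5. Shares of lower genes with and without the ISRE core were not computed over all genes either. Both motifs were present in 3 promoters, those of Oas1a, Oas1b and Ifitm3, and no ISRE match overlapped a GAS match. In Oas1a, Oas1b and Oas1i, 2 ISRE matches overlap each other.

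**Figure D3:**
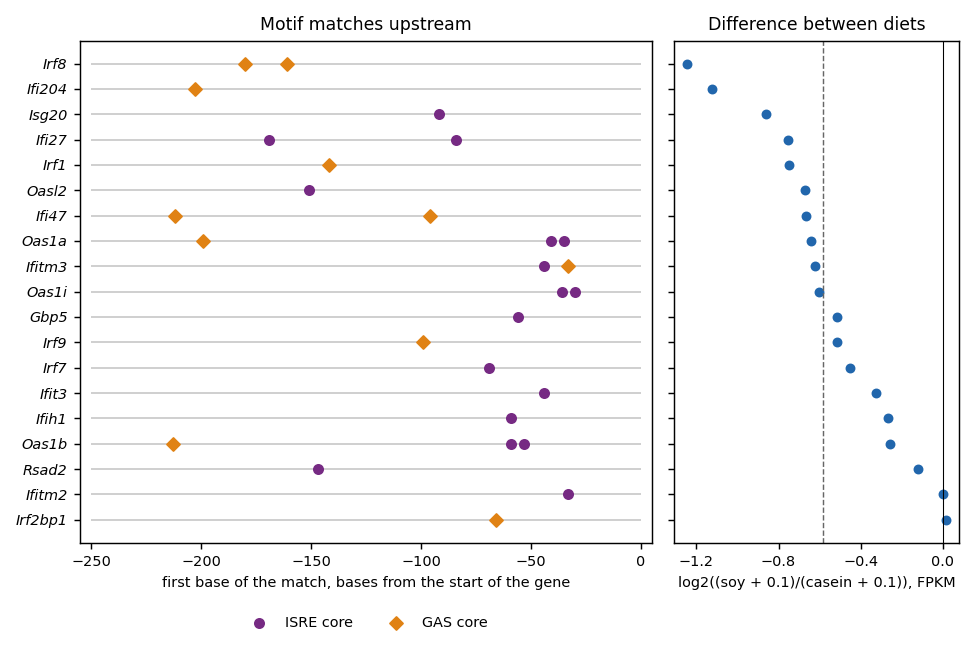
Left, first base of each ISRE core (circles) and GAS core (diamonds) in the 250 bases upstream of 19 members at the limit that hold either motif; right, log2((soy FPKM + 0.1)/(casein FPKM + 0.1)) of the same genes, with a dashed line at 1.5-fold lower. Irf8, with 2 GAS matches, is at the top (-1.25), and genes with an ISRE match run from Isg20 (-0.86) to Ifitm2 (0.0036).

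The Oas family makes short adenylate chains that activate RNase L, and 4 of its 5 rows at the limit were at least 1.5-fold lower, with a median log2 of -0.64. All 5 have a mean of 1 to 5 FPKM, a range in which 17.7% of all genes were lower. With a pseudocount of 1 FPKM, Oas1a, Oas1i and Oasl2 came inside the limit. Oasl, a relative of the synthases, had 1.97 FPKM with soy and 3.84 FPKM with casein, 1.95-fold lower. Oasl2 had 3.77 FPKM with soy and 6.06 FPKM with casein, and Oas1a had 2.94 FPKM with soy and 4.64 FPKM with casein. These were 1.61-fold and 1.58-fold lower. Oas1i had 1.18 FPKM with soy and 1.84 FPKM with casein, while Oas1b, within the limit, had 1.26 FPKM with soy and 1.53 FPKM with casein. The other 5 Oas1 rows, Oas1d, Oas1e, Oas1f, Oas1h and Oas1k, were at most at 0.266 FPKM with soy and 0.193 FPKM with casein. All 8 Oas1 rows lie between 36760820 and 36906328 on chromosome 12, and such copies can share fragments.

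The Ifit genes, whose products bind viral RNA and are among the strongest targets of type I interferon, differed little. Ifit2 had 3.56 FPKM with soy and 4.01 FPKM with casein, Ifit3 had 2.23 FPKM with soy and 2.82 FPKM with casein, and Ifit1lb had 1.34 FPKM with soy and 1.59 FPKM with casein. They were 1.12-fold to 1.26-fold lower. Ifit1 was near 0, at 0.0191 FPKM with soy and 0.0262 FPKM with casein. Ifih1, the cytosolic RNA sensor MDA5, had 2.52 FPKM with soy and 3.05 FPKM with casein. Its regulator Dhx58 was lower by more, 1.67-fold, with 2.86 FPKM with soy and 4.77 FPKM with casein.

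Other antiviral effectors were all lower in value, 2 of 7 by at least 1.5-fold. Isg20, an exonuclease that degrades RNA, had 2.41 FPKM with soy and 4.45 FPKM with casein, 1.85-fold lower. Usp18, the protease that removes Isg15 from proteins and restrains the type I receptor, had 3.21 FPKM with soy and 5.00 FPKM with casein, 1.56-fold lower. Isg15, the ubiquitin-like modifier itself, had 11.6 FPKM with soy and 16.5 FPKM with casein, 1.42-fold lower.

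The dynamin-like GTPases Mx1 and Mx2 stood close to the limit. Mx1 had 2.94 FPKM with soy and 4.31 FPKM with casein, and Mx2 had 3.41 FPKM with soy and 4.82 FPKM with casein. Gbp5, a guanylate-binding protein of inflammasome signalling, was 1.45-fold lower, with 2.34 FPKM with soy and 3.39 FPKM with casein, while Gbp1 and Gbp4 were below the limit. Rsad2, the antiviral enzyme viperin, differed by only 1.09-fold, with 2.61 FPKM with soy and 2.85 FPKM with casein. Isg20l2, a nucleolar exonuclease that shares its deposited locus with 2 other rows, had 4.47 FPKM with soy and 5.03 FPKM with casein.

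Summed over all 64 rows, the members came to 1115 FPKM with soy and 1457 FPKM with casein. The 5 most abundant, Ifitm2, Ifi27, Ifitm3, Ifi30 and Ifi27l2b, made up 58.3% of the sum with soy and 59.1% with casein. Without Ifitm2, the sums were 818 FPKM with soy and 1161 FPKM with casein.

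The rest of the pathway was described with a list of genes outside the name rule. Of 66 such genes at the limit, 24 were lower past 1.5-fold in the soy kidney and 0 higher, against 8.08% lower and 3.43% higher of all genes, and the median log2 was -0.42, against 0.01 for all genes. The same shares of all genes are the background for each list named next. Of 39 induced genes among them, 19 were lower (median -0.58). The immunoproteasome subunit Psmb8 had 24.6 FPKM with soy and 49.7 FPKM with casein, and its partner Psmb10 had 23.0 FPKM with soy and 45.3 FPKM with casein. Cxcl11, a chemokine induced by interferon gamma, had 8.57 FPKM with soy and 17.3 FPKM with casein. Lgals3bp, a secreted galectin-binding protein, had 29.1 FPKM with soy and 60.7 FPKM with casein, and Epsti1 and Rtp4 were 2.12-fold and 1.90-fold lower.

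Of 15 JAK kinases and regulators, 1 was at least 1.5-fold lower, and the median log2 was -0.07. It was Socs3, a feedback inhibitor of cytokine receptors, with 5.00 FPKM with soy and 8.47 FPKM with casein, while Jak3, the kinase of lymphocyte cytokine receptors, had 15.2 FPKM with soy and 20.7 FPKM with casein. Of 12 nucleic acid sensing genes, 4 were lower (median -0.10). These were Zbp1 (1.11 FPKM with soy, 2.43 FPKM with casein), Tlr7 (1.1 FPKM with soy, 2.11 FPKM with casein), Ikbke (2.50 FPKM with soy, 4.57 FPKM with casein) and the row RGD1562552, which RefSeq names Sting1 (4.94 FPKM with soy, 7.99 FPKM with casein). Adar, which edits double-stranded RNA, was within the limit, with 9.13 FPKM with soy and 11.3 FPKM with casein.

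Leukocyte markers were lower in the same comparison. The limit is on the mean of both diets, and Itgam, Klrd1 and Cd79b passed it through their casein values alone. Their values were 0.829, 0.949 and 0.821 FPKM with soy, and 2.14, 1.78 and 2.34 FPKM with casein. The limit itself therefore favours a lower call for such markers. All 12 macrophage markers at the limit, of 13 found, were at least 1.5-fold lower (median log2 -0.87), and the 13 summed to 592 FPKM with soy and 1093 FPKM with casein. Lyz2 alone gave 334 FPKM with soy and 611 FPKM with casein, most of both sums. Of 9 T cell markers at the limit, of 10 found, 8 were lower (median -1.02), and the 10 summed to 36.5 FPKM with soy and 76.5 FPKM with casein. All 7 natural killer and cytotoxic markers at the limit, of 9 found, were lower (median -1.45), with sums of 13.5 FPKM with soy and 37.3 FPKM with casein. Klrb1 was listed at 0 with soy and at 0.104 FPKM with casein, too low for a call. Of 4 B cell markers at the limit, of 7 found, 3 were lower, with sums of 32.6 FPKM with soy and 50.0 FPKM with casein. Most of both sums came from Blnk, the 1 within 1.5-fold, at 24.0 FPKM with soy and 30.0 FPKM with casein. Of the markers of plasmacytoid dendritic cells, the main source of type I interferon in blood, 4 were found, with sums of 2.91 FPKM with soy and 3.52 FPKM with casein. The 1 at the limit was Tcf4, within 1.5-fold, at 2.72 FPKM with soy and 3.12 FPKM with casein. The sums are therefore mostly the level of that gene, and the other 3 markers were too low for a call. Among them, Siglech was listed at 0 with soy and at 0.0757 FPKM with casein.

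Of 8 endothelial markers, 0 were lower and 1 higher (median 0.20), with sums of 181 FPKM with soy and 155 FPKM with casein. The 9 proximal tubule markers, which check the labelled tissue, summed to 5746 FPKM with soy and 4715 FPKM with casein, with 1 lower, 1 higher and a median of 0.33. Miox was the largest part of these sums, at 2678 FPKM with soy and 1928 FPKM with casein. In whole tissue, fewer cells of a type and less RNA per cell cannot be told apart. The part that leukocyte content has in the values of the interferon-system genes was not tested.

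**Figure D4:**
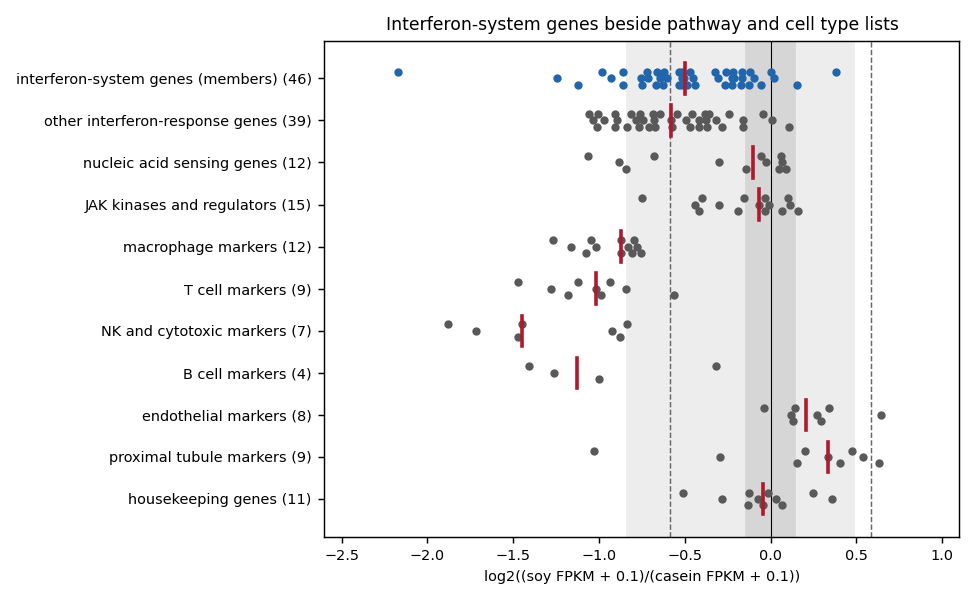
Log2((soy FPKM + 0.1)/(casein FPKM + 0.1)) of the 46 interferon-system genes (blue) beside pathway and cell type lists (grey), with 1 point per gene at or above 1 FPKM, red bars for medians, dashed lines at 1.5-fold, and shading for the middle 50% and the 5th to 95th percentiles of all genes. The median of the members (-0.50) lies between that of macrophage markers (-0.87) and that of housekeeping genes (-0.05).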

How the data were processed

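Kidney RNA of 1 soy and 1 casein library was analysed. The authors deposited 1 value per gene and diet, with p-values and q-values of their own comparison, and a second table of transcripts marked as significant, per the file headers. The headers name no unit for the values. They were read as FPKM because the deposited columns have the layout of Cufflinks output, and Cufflinks is named, with Bowtie and TopHat but no versions, in the submitters' processing notes. Genome build and further scaling: not given in the sources used here. Read depth is unknown, so no counting interval is given, and a value of 0 can be a failed estimate.

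Columns were matched to diets by their headings. Diets were compared as log2((soy FPKM + 0.1)/(casein FPKM + 0.1)) for genes whose mean of the soy and casein values reached 1 FPKM, so a gene can pass through 1 diet alone. With 1 library per diet, no test was run across genes, and counts past 1.5-fold stand beside the same share of all genes. The call and median functions and the name rule were tested on simulated data. Members and lists were chosen with earlier results of these data known. Both values are given for members past 1.5-fold, for the receptor, STAT and IRF rows and for the 3 most abundant genes of each role, and up to 6 genes with the largest absolute log2 are named from each pathway list. The printed ISRE promoters follow a fixed rule (mean of at least 5 FPKM, lowest log2). Values of some genes are not reported here. List symbols were matched through RefSeq synonyms (GRCr8). Alternatives were pseudocounts of 0.01 and 1, a mean of 5 FPKM or no limit, status OK only, centring on the median of all or of housekeeping genes, a 2-fold limit and q limits of 0.01 and 0.1. Scripts ran in Python 3.11.15 with pandas 2.3.3 and numpy 2.4.6, and figures were drawn in matplotlib 3.10.9.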

Additional observations from a re-analysis of the deposited data

How the results depend on the processing

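The count of 17 lower members of 46 was 12 with a pseudocount of 1 FPKM, against 6.10% of all genes, and 17 with one of 0.01, against 8.34%. It was 16 of 45 among rows with status OK, against 8.09%, 14 after centring on housekeeping genes (median log2 -0.05), against 7.42%, and 17 after centring on all genes, against 8.28%. Among the 43 members alone at their locus, an alternative chosen after seeing the data, it was 17, against 8.08% of all genes. It was 8 of 27 at a mean of at least 5 FPKM and 3 with a 2-fold limit, both by construction, against 4.51% and 3.59% of all genes. With a pseudocount of 1, the members Dhx58, Oas1a, Oas1i, Oasl2 and Usp18 came inside the limit, and after centring on housekeeping genes Ifitm3, Oas1i and Usp18 did. The housekeeping list includes B2m, whose log2 of -0.51 was the lowest in it, and centring without B2m was not run. With no limit on low values, 18 of 62 members were lower, against 11.2% of all genes, and 2 were higher, against 5.07%. The 2 are the low rows Ifng and Ifnk, and the median was -0.29. Under the other settings the median of the members lay between -0.52 and -0.41. The count of 24 lower genes in the rest of the pathway was 5 with a 2-fold limit, against 3.59% of all genes. At q below 0.1, the authors' deposited table gives 2 members, Irf8 and Ifi27, against 1.32% of all genes with status OK. At q below 0.01 it gives 0, against 0.418%, a share so small that this 0 says little about the members. The sign of members past 1.5-fold is no check, because the same pseudocount added to both values cannot turn it. The medians used for centring, 0.01 for all genes and -0.05 for housekeeping genes, were too small to turn it. No paired analysis was possible because each diet has 1 library, and for the same reason no replicate could be left out. Read depth is unknown, so differences of genes near 1 FPKM cannot be given a counting error.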
